A study of Mus musculus with 18 samples.

Results

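The coding peaks of acetylated RNA that crossed splice junctions were the subject of these measurements. They were taken from the deposited list of peaks of immunoprecipitated acetylated RNA (acRIP-seq) as the rows whose class was coding sequence and that held 2 or more separate blocks on the genome, the space between blocks being an intron in most cases. This gave 504 of 1358 listed peaks, in 422 of 1066 genes with any listed peak. A further 305 coding peaks, in 244 genes, held 1 block, and 49 genes had coding peaks of both kinds.

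N4-acetylcytidine is a modified cytidine of RNA that is written by the acetyltransferase NAT10. The enzyme acts on ribosomal RNA, on transfer RNA with the adaptor THUMPD1, and has been reported to act on messenger RNA, where the mark is discussed for its effect on RNA stability and on decoding by the ribosome. An antibody against the mark pulls down RNA fragments, and a peak is a stretch where precipitated reads exceed the input reads. A peak whose reads skip an intron was read from RNA that had been spliced.

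The cells were TC1, an established mouse tumour line that the labels call fibrosarcoma. They were unedited (WT), or had received a guide targeting Nat10 (sgNAT10) or Myc (sgMyc). Messenger RNA was measured in 2 sets, the first with 2 WT and 2 sgNAT10 libraries and the other with 3 WT and 3 sgMyc libraries of its own. Ribosome-protected fragments, called footprints here, came from 2 WT and 2 sgNAT10 libraries. Acetylated RNA came from 1 precipitated and 1 input library of each of WT and sgNAT10, so no peak value has a replicate. No library carried a control guide, and the labels do not say whether an edited line is 1 clone or a pool, nor whether replicates were separate cultures, so p-values measure the spread between these libraries only.

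Nat10 itself had a mean of 5.33 FPKM (fragments per kilobase of gene, scaled to library depth) in WT and 3.77 in sgNAT10 of the first set. Myc had 65.7 in WT and 25.4 in sgMyc of the other set (log2 fold change -1.37). It was lower in sgNAT10 as well, with 116 in WT and 40.5 in sgNAT10 of the first set (-1.49). Reads recovered from the deposited values came to 12738555 to 16626867 per mRNA library and 1615562 to 3344781 per footprint library, and the sgMyc set held 51875052 to 65768024 counts per library. The common coefficient of variation between replicates was 0.0269 for the first mRNA set, 0.364 for footprints and 0.245 for the sgMyc set. sgMyc replicate 3 stood apart from the other sgMyc libraries, and results of that set are given with and without it. Of 10 fibroblast markers 5 reached 1 FPKM in WT, and of 7 epithelial markers none did, with 5 of them at 0. Of 5 macrophage markers 3 did, 2 being at 0, with a summed level of 5.74 FPKM in WT and 12.9 in sgNAT10. The rise of that sum was in Cd14, with means of 2.28 in WT and 9.75 in sgNAT10. Csf1r had 2.28 and 1.94, and Cd68 1.19 and 1.25. The part of these in the results was not tested.

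The exon edges of the peaks could be read directly in 8 of the 422 genes, where a RefSeq sequence window around a transcript start happened to cover an edge. They are shown because they give the junctions base by base, with 20 exon bases in capitals and 8 intron bases in lower case, 5′ to 3′ on the strand of the gene (GRCm38.p6, the mm10 assembly). Introns of the usual kind begin with gt and end with ag.
Cdc37 donor, chr9:21149748-21149775, minus strand: TCTTCCGCTGGCGGCACCAGgtggggct
Egln1 donor, chr8:124948225-124948252, minus strand: GGATAAACGGCCGAACGAAAgtaagtgg
Fgg donor, chr3:83008538-83008565, plus strand: AGACCAACCCCCAAAGCCAGgtgagagg
Mea1 donor, chr17:46681186-46681213, plus strand: GCCGAGAATCAGTGGGGCGGgtagggga
Mrps26 donor, chr2:130563971-130563998, plus strand: GAGACCGTGCGCGCTCTCAGgtgcgtgt
Pfdn2 donor, chr1:171345767-171345794, plus strand: GGGCGGTGTCGGCGGAACAGgtgaggag
All 8 donor edges found had gt right after the last base of the block, and both acceptor edges found had ag right before the first base. The edges were taken from the block positions, and reads across them were not examined. So gt and ag here describe where the listed blocks end, not splicing seen in the reads.

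In Lgals1 and Sestd1 the window held a whole inner block with both of its edges, so the complete exon inside the peak can be given. Lgals1 encodes galectin-1, a small sugar-binding protein, and Sestd1 a protein with a SEC14 domain and spectrin repeats. The capitals mark the exon, and the 8 bases on either side are intron.
Lgals1 exon, chr15:78927970-78928049, plus strand: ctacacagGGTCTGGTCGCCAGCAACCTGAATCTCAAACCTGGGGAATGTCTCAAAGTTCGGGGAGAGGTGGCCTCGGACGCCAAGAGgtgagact
Sestd1 exon, chr2:77206206-77206328, minus strand: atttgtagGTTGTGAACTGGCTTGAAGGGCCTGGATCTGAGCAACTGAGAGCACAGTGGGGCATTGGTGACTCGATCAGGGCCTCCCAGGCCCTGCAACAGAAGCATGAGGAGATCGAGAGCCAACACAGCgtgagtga
The Lgals1 exon of 80 bases held 20 cytidines, or 25% of its bases. The Sestd1 exon of 123 bases held 30, or 24.4%. Over all 32815 RefSeq start windows the share of C was 26.5%, close to both. Which cytidine of a peak was acetylated cannot be read from the deposited list.

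Most of the peaks had a single gap. There were 297 peaks of 2 blocks, 139 of 3, 41 of 4, 15 of 5, and 12 with 6 to 15 blocks. In all they crossed 844 gaps. The 340 inner blocks, which span from gap to gap, had a median of 109 bases (quartiles 78 and 145), and the gaps had a median of 584.5 bases, from 4 to 37849. Of the gaps, 9 had fewer than 30 bases, too short for a spliced intron. In 3 peaks, of Eef1a1, Mrpl20 and Rpl18, such short gaps were all there was, so these met the rule without a visible splice junction. In 118 peaks the smallest block had fewer than 20 bases, and in 4 it was a single base.

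Covered length, the sum of the blocks, had a median of 210 bases (quartiles 178 and 295, range 118 to 2491), against 181 in coding peaks of 1 block and 181 over all peaks. Lengths fell in steps: 462 of the 504 (91.7%) lay within 2 bases of a multiple of 30, as did 88.6% of all peaks. Length is not independent of the rule, since a longer stretch of exon meets more junctions. Of the 493 peaks whose gene had RefSeq limits, 488 lay inside them, at a median of 65.8% of the gene's genomic length from its start (quartiles 40.5% and 83.1%). All but 1 of the peaks were in genes of the class protein coding.

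Enrichment over input, in the authors' deposited table, was modest for most peaks. The median fold was 1.63 (quartiles 1.41 and 2.01, range 1.11 to 72.9), against 1.72 in coding peaks of 1 block and 1.99 in peaks outside coding sequence. A fold of 2 or more was given for 128 of the 504 peaks (25.4%), against 35.7% of 1-block coding peaks and 37.5% of all peaks. At a false discovery rate of the authors of 0.05 or less were 464 peaks (92.1%), against a background of 84.8% over the whole list. Unreadable rates, of 34 of these peaks and 66 of the whole list, were counted as passing, since they belong to the lowest p-values. So the junction-crossing peaks were of smaller fold than other peaks, while a larger share passed the authors' score. The file does not say from which genotype the fold was computed.

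**Figure D1:**
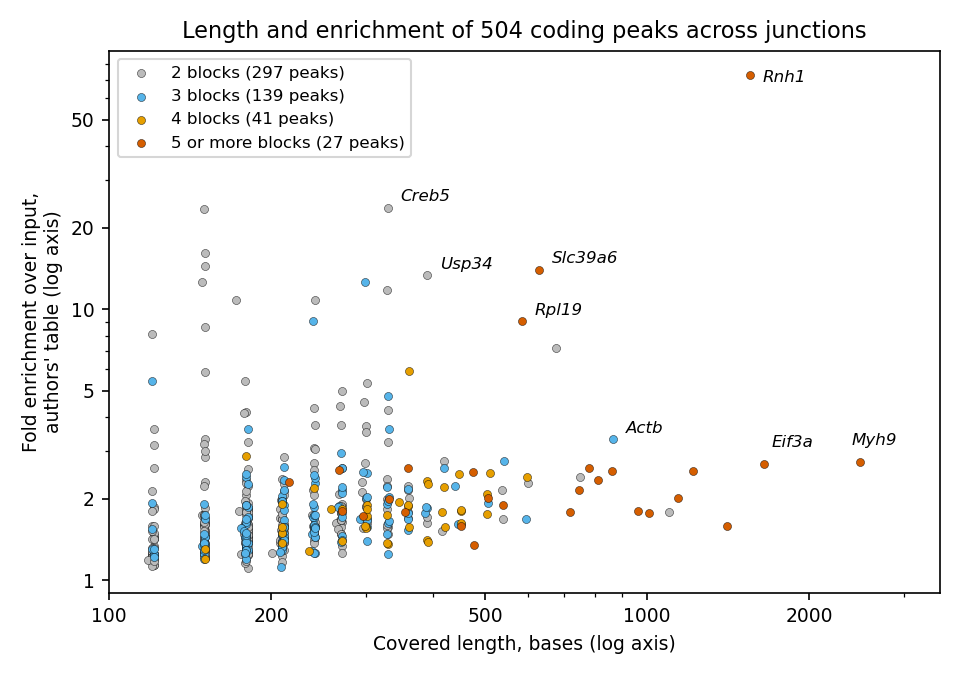
Covered length in bases (x, log axis) and the authors' fold enrichment over input (y, log axis) of the 504 coding peaks across junctions, coloured by the number of blocks, 1 point per peak. Lengths stand in columns near multiples of 30 bases, Rnh1 lies alone at 72.9-fold, and the longest peak is Myh9 with 2491 bases.

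Peaks with more blocks were longer and had higher folds. The median fold was 1.60 with 2 blocks, 1.65 with 3, 1.79 with 4 and 2.16 with 5 or more, and the median covered length 181, 211, 330 and 630 bases. Across the 504 peaks, log2 length and log2 enrichment had a Pearson r of 0.29 and a Spearman rho of 0.44. The values come from 1 set of libraries and share their reads, so these coefficients describe the list.

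Rnh1, the ribonuclease inhibitor, a protein of leucine-rich repeats that binds ribonucleases in the cytosol, carried the highest enrichment of the list at 72.9-fold. Its peak (chr7:141160445-141168036, minus strand) covered 1551 bases in 10 blocks, of which 7 neighbouring inner blocks had exactly 171 bases each. Its mRNA was in the middle range, with 30.02 and 30.7 FPKM in the WT libraries and 37.4 and 34.4 in sgNAT10, close to the median of the genes with such peaks. The next highest fold, 23.7, was given for a peak of 2 blocks in Creb5 (chr6:53648959-53681217, plus strand), a transcription factor gene of the cyclic AMP response family. Creb5 mRNA was near the lower end, at 0.522 and 0.540 FPKM in WT. Etfbkmt, a lysine methyltransferase gene, had 23.5-fold over 150 bases with 1.16 FPKM on average in WT.

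Myh9, the heavy chain of nonmuscle myosin, had the longest peak of the list, 2491 bases in 15 blocks (chr15:77765713-77775876, minus strand, 2.74-fold). Eif3a, the largest subunit of an initiation factor, was next with 1646 bases in 7 blocks (chr19:60762133-60770001, minus strand, 2.69-fold). A peak of 13 blocks and 1009 bases was assigned to the predicted gene Gm20721 (chr2:174330349-174346267, minus strand, 1.77-fold) and lies within the RefSeq limits of Gnas, so the gene it belongs to is uncertain. The shortest peak covered 118 bases, in Tnfrsf12a. The lowest folds were 1.11 in Flna, 1.12 in Eef1b2 and 1.13 in Mfn2.

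Several long genes were covered by a row of separate peaks. Fn1, the gene of the matrix protein fibronectin, held 7 of the peaks, between 121 and 1409 covered bases and with folds of 1.27 to 2.49. Plec, a linker of cytoskeletal filaments, held 5, and Axl, a receptor tyrosine kinase, Flna, an actin crosslinker, and Myh9 held 4 each. In all, 62 genes had 2 or more of the peaks, and 360 had 1.

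For each peak the authors' deposited table gives a log2 difference between the genotypes, whose order the header does not state, so a sign is not read here as a gain or a loss. The difference was positive in 285 and negative in 219 of the 504 peaks (56.5% positive, against 56.8% of all peaks), with a median of 0.11 and a range from -8.15 to 5.44. At a false discovery rate of the authors of 0.05 or less were 350 peaks (69.4%), against 65.3% of all peaks, of which 209 were positive (background 38.0%) and 141 negative (background 27.3%). These scores come from reads of 1 library per group and compare libraries, not genotypes. A size of 1 or more was reached by 152 peaks (30.2%), against 40.3% of 1-block coding peaks and 37.6% of all peaks.

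**Figure D2:**
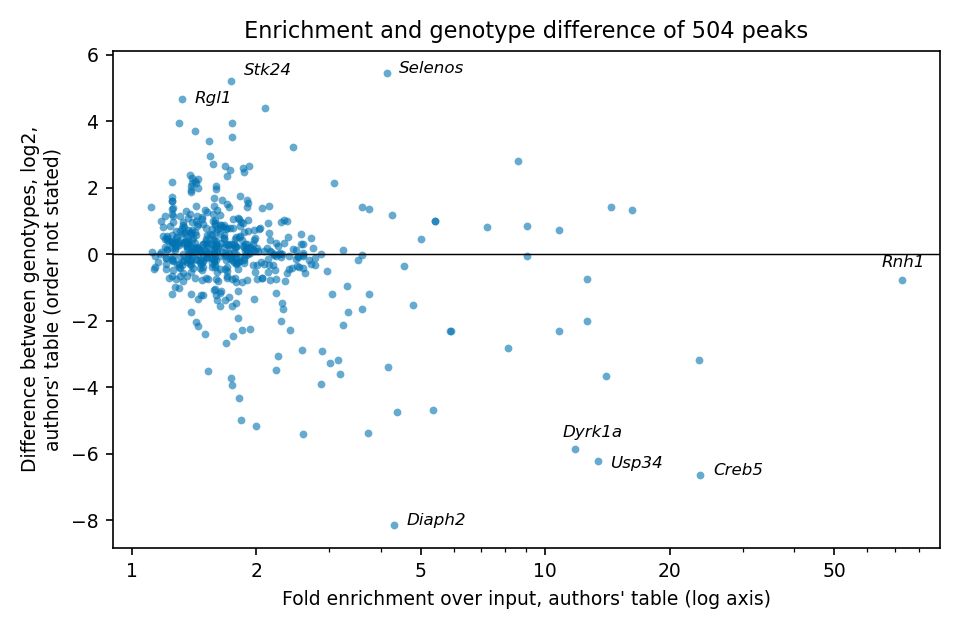
Fold enrichment over input (x, log axis) and log2 difference between genotypes (y, order not stated) of the 504 peaks, both from the authors' table, 1 point per peak. The widest spread is below 0, down to -8.15 in Diaph2, and among peaks of 4-fold or more the median is -1.15.

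The sign went with the size of the enrichment. The 30 peaks of 4-fold or more had a median difference of -1.15, against 0.22 in the 176 peaks below 1.5-fold. Among the peaks at or above the median enrichment of the whole list 46.2% were positive. Of the 30, 16 had a difference at a false discovery rate of the authors of 0.05 or less, against 350 of the 504. Fold and difference come from the same unreplicated libraries, so they are not independent. The most negative values were -8.15 in Diaph2, a formin that nucleates actin filaments, -6.63 in Creb5, -6.23 in Usp34, a ubiquitin protease, and -5.87 in Dyrk1a, a protein kinase. Creb5, Usp34 and Dyrk1a were also among the highest folds, at 23.7, 13.4 and 11.8. The most positive values were 5.44 in Selenos, a selenoprotein of the endoplasmic reticulum, 5.21 in the kinase gene Stk24, 4.67 in Rgl1, a regulator of Ral GTPases, and 4.41 in Col4a2, a chain of collagen IV.

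Peaks of 1 gene did not always share a sign. Of the 62 genes with 2 or more of the peaks, 28 had differences of both signs. The 2 peaks of Col4a2 had 4.41 and -3.50. Among the 7 of Fn1 the values ran from -1.16 to 0.45. In Dnmt1, the maintenance DNA methyltransferase, a peak of 3 blocks had 0.29 and one of 6 blocks -0.54. Large differences stood in genes of lower mRNA: the median WT level was 11.6 FPKM over 66 peaks at -1 or less, 19.9 over 81 peaks at 1 or more and 43.5 over 341 peaks between, leaving out peaks whose gene had no mRNA value. The size of the difference and log2(WT FPKM + 1) had a Pearson r of -0.37 and a Spearman rho of -0.39 over 488 peaks, which share libraries and include several peaks of 1 gene.

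Genes with a junction-crossing coding peak were highly expressed. Their WT mRNA had a median of 30.6 FPKM in the 402 that were tested (quartiles 13.3 and 83.2), against 6.57 over all 11735 genes tested and 14.4 in genes that had only 1-block coding peaks. Of the 100 genes with the highest WT mRNA, 44 had such a peak. WT footprints had a median of 46.5 FPKM against 7.90 over all 9707 genes tested, and 41 of the top 100 genes by footprints had such a peak. In these bulk samples fewer cells of a type and less RNA per cell cannot be told apart.

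**Figure D3:**
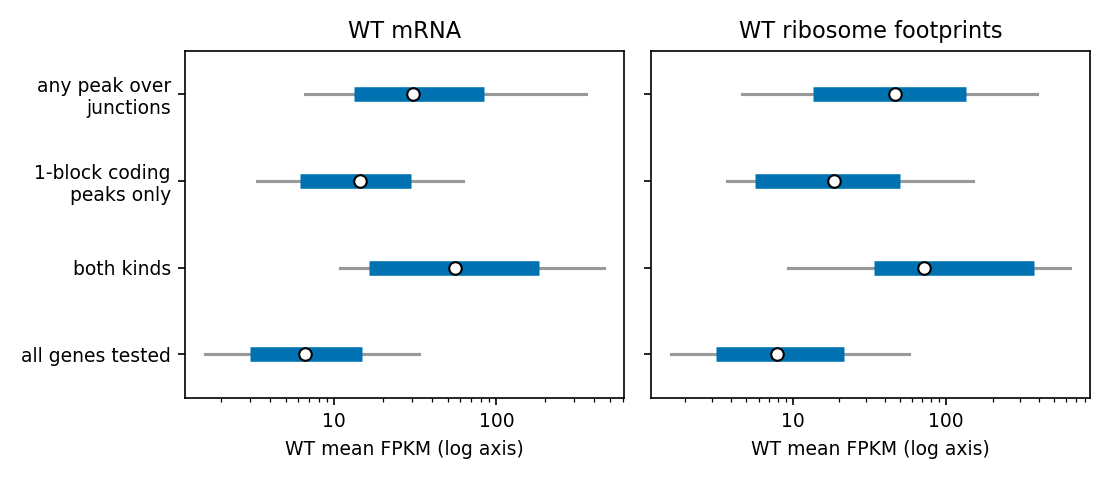
WT mean FPKM (x, log axis) of mRNA and of footprints for genes with a junction-crossing coding peak, genes with 1-block coding peaks only, genes with both kinds, and all genes tested. The circle is the median, the bar the quartiles and the line the 10th to 90th percentile, and the first group has medians of 30.6 and 46.5 FPKM against 6.57 and 7.90 over all genes.

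The level also went with peak length and little with enrichment. Covered length and WT mRNA had a Pearson r of 0.39 and a Spearman rho of 0.35 over 488 peaks, while enrichment and WT mRNA had -0.16 and -0.09. Of the 30 peaks of 4-fold or more, 23 had an mRNA value for their gene, with a median of 9.30 FPKM. The ratio of footprints to mRNA in WT had a median of 0.37 on the log2 scale in the 398 genes with both values, against 0.16 over all 9200 genes, where the 2 tables were normalized separately.

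The genes at the top were those of translation, the cytoskeleton and secreted or calcium-binding proteins. Eef1a1, the elongation factor that brings aminoacyl-tRNA to the ribosome, had 3011 and 3087 FPKM of mRNA in WT, the highest of the group, and carried peaks of 1099 and 416 bases. Rplp0 and Rplp1, of the ribosomal stalk, and Actb, cytoplasmic actin, followed with WT means of 1436 to 1529. By footprints the highest were Rpl8, Lgals1, S100a6 and Actb. Lgals1 had 3036 and 3250 FPKM of footprints in WT and S100a6, a calcium-binding protein, 2961 and 3184.

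Against WT, 309 of the 402 tested genes with such a peak passed the test for mRNA in sgNAT10 (limma, adjusted p under 0.05), or 76.9%, where 63.3% of all genes passed. There were 168 that rose (background 33.7%) and 141 that fell (background 29.6%), with a median log2 fold change of 0.03 against 0.01 over all genes. The majority turned with median scaling of the libraries, which gave 149 higher and 162 lower, with medians of -0.03 and -0.04. The genes with such a peak were also of higher level than most. Among genes averaging 5 FPKM or more the gap was narrower, with 78.4% of genes with such a peak passing against 71.3% of all genes. Replicates of this set were close, and most called changes were small. A log2 change of at least 1 was seen in 35 genes that rose and 5 that fell. The same was not counted over all genes, so this split is not read as a trait of genes with such a peak. Fold changes are on the scale of log2(FPKM + 1) and understate those of low genes.

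The largest rise was in Grem1, which encodes a secreted inhibitor of BMP signalling. Its mRNA had 2.23 and 3.05 FPKM in WT and 168 and 172 in sgNAT10 (log2 fold change 5.56, SE 0.106, adjusted p = 9.26e-06). Its peak (chr2:113749774-113758646, minus strand) covered 538 bases in 2 blocks at 2.15-fold. Ptgs2, the inducible cyclooxygenase, had 1.41 and 1.56 in WT and 48.3 and 48.5 in sgNAT10 (4.32, SE 0.0470, adjusted p = 4.07e-06) and carried 2 peaks of 1.67-fold and 1.22-fold. Spp1, the secreted phosphoprotein osteopontin, had 57.1 and 56.6 in WT and 521 and 503 in sgNAT10 (3.15, SE 0.0298, adjusted p = 2.95e-06). In Thbs2, a matrix glycoprotein of the thrombospondin family, the values were 1.72 and 1.97 against 22.9 and 21.8 (3.04, SE 0.0608, adjusted p = 9.41e-06). In these 4 genes every sgNAT10 library lay far above both WT libraries, which follows from picking the largest rises.

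The falls were smaller. Ezr, which links the membrane to actin, had 23.4 and 23.3 FPKM in WT and 6.19 and 6.10 in sgNAT10 (log2 fold change -1.77, SE 0.0366, adjusted p = 9.69e-06). Col4a1 and Col4a2, the main chains of collagen IV of basement membranes, fell together, Col4a1 from 43.6 and 43.4 to 14.03 and 14.2 (-1.56) and Col4a2 from 24.6 and 24.7 to 8.43 and 8.63 (-1.43). Ahnak, a giant scaffold protein, had 161 and 170 in WT and 85.6 and 71.9 in sgNAT10 (-1.07, adjusted p = 0.000329). The genotypes did not overlap in any of these, which follows from picking the largest falls.

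**Figure D4:**
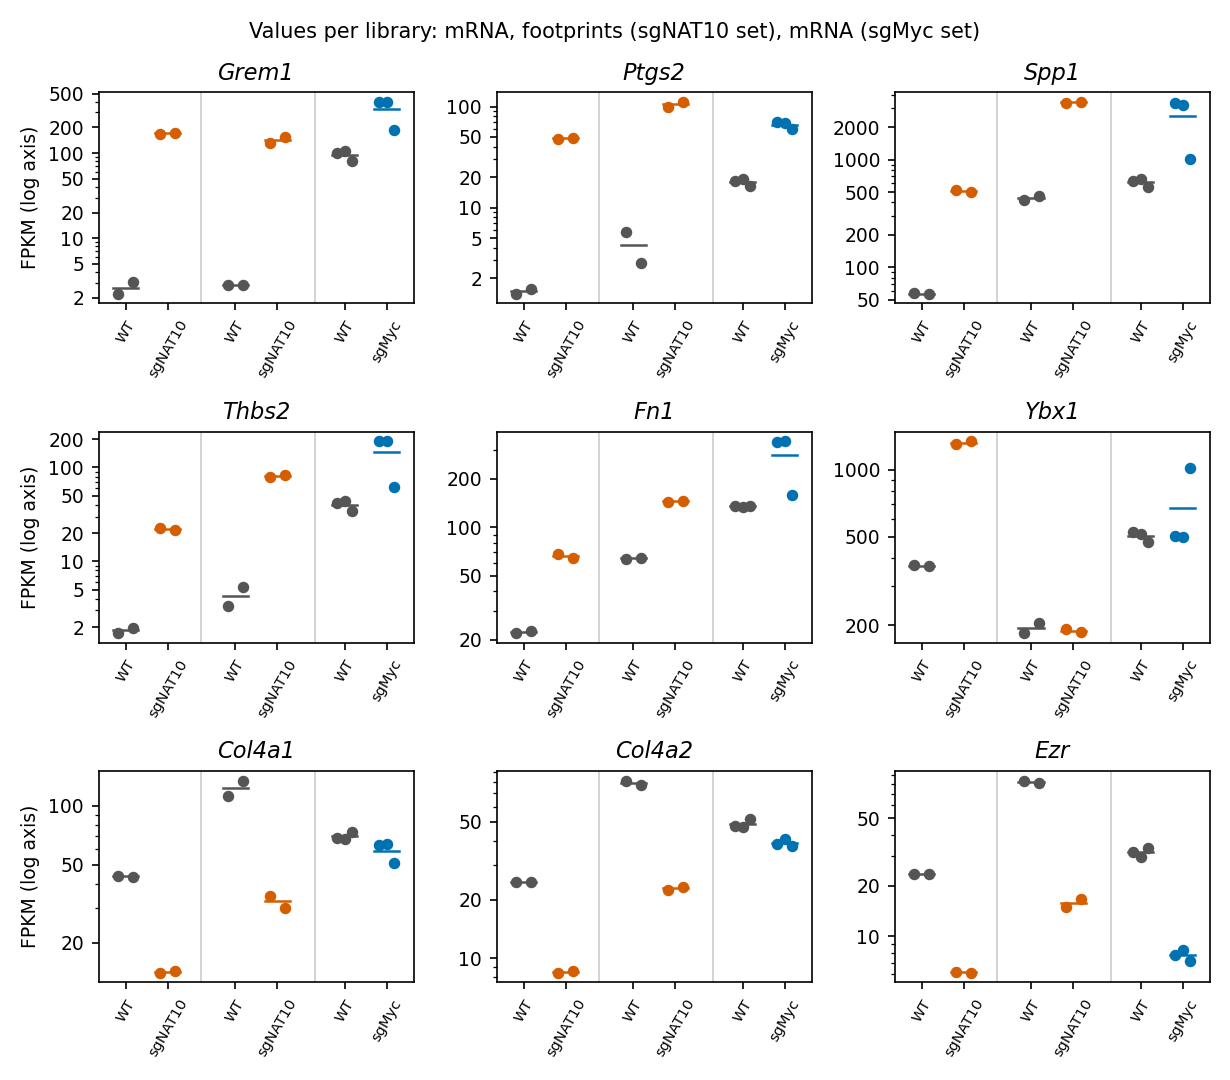
FPKM (y, log axis, own scale per gene) of 9 genes with a junction-crossing coding peak, 1 point per library with the mean as a line, for mRNA and footprints of the sgNAT10 set and mRNA of the sgMyc set (left to right in each panel). Grem1, Ptgs2, Spp1, Thbs2 and Fn1 lie higher and Col4a1, Col4a2 and Ezr lower in sgNAT10 in both assays, and Ybx1 is higher in mRNA only.

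Genes of ribosomal proteins made up 21 of the 422, which is 24.1% of the 87 tested in that list. In sgNAT10 none of the 21 rose and 16 fell, with a median log2 change of -0.25, against 6 higher and 57 lower in the whole list with a median of -0.22. Rpl8 had 1387 and 1378 FPKM in WT and 1130 and 1109 in sgNAT10 (-0.30, adjusted p = 0.000502). The footprints of the 21 had a median of -0.04. Ribosomal protein genes, Eef1a1 and Ybx1 have processed pseudogenes that can share their reads, so their levels are uncertain.

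Translation factors held 18 genes with 25 peaks, 3 higher and 7 lower in mRNA, with a median change of -0.04, against 13 higher and 36 lower of 67 in the whole list. Eef1a1 fell from 3011 and 3087 FPKM to 2242 and 2241 (-0.44, adjusted p = 0.000204), and Eif5a fell by 0.42 on the log2 scale. Of the 6 aminoacyl-tRNA synthetases, which load transfer RNA, none rose and 4 fell, against 2 and 12 of 18 in the whole list. Sars, for serine, had 48.4 and 49.1 in WT and 31.6 and 31.2 in sgNAT10 (-0.62, adjusted p = 7.21e-05), and Lars, for leucine, fell by 0.40. The 6 genes of nucleolar proteins had 4 that fell and none that rose, against 30 and 4 of 40 in the whole list. Npm1, a histone and ribosome chaperone of the nucleolus, had 887 and 864 in WT and 478 and 481 in sgNAT10 (-0.87, adjusted p = 2.45e-05), and Nolc1 and Ncl fell by 0.96 and 0.40.

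The chaperone list had 8 of 13 genes lower and 2 higher, where the whole list of 71 had 25 lower and 26 higher. Lists were matched by symbol, so this one took in Hspg2, a matrix proteoglycan gene and not a chaperone. It was among the genes that rose and is counted in the matrix list too. Hsp90ab1, the constitutive cytosolic HSP90, had 1384 and 1398 FPKM in WT and 802 and 777 in sgNAT10 (-0.82, adjusted p = 3.55e-05), and Hspd1 of mitochondria fell by 0.38. Calr, a chaperone of the endoplasmic reticulum, did not pass (0.03, adjusted p = 0.443). All 9 peaks in the 6 glycolytic genes had a positive difference between genotypes in the authors' deposited table, where 56.8% of all peaks did. These included 2 peaks each of Eno1, Ldha and Pkm, and the lowest value was 0.00811 in Eno1. In mRNA 4 of the 6 genes fell and none rose, against 10 and 0 of 19 in the whole list. Ldha fell by 0.16 and Pgk1 by 0.13, while Aldoa did not pass (-0.06, adjusted p = 0.202).

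Genes of the cytoskeleton went the other way, with 15 of 22 higher and 5 lower and a median of 0.43, against 54 higher, 26 lower and a median of 0.14 in the whole list of 103. Flna had 41.9 and 43.3 FPKM in WT and 113 and 105 in sgNAT10 (1.33, adjusted p = 2.49e-05), Myh9 28.9 and 29.3 against 58.4 and 59.7 (1.00, adjusted p = 2.25e-05), and Vcl, an adaptor of cell contacts, 11.5 and 11.8 against 33.4 and 34.0. The tropomyosins Tpm1, Tpm2 and Tpm4 rose by 1.01, 1.17 and 1.21. Cfl1, which severs actin, and Tubb5, a tubulin, fell by 0.16 and 0.14. Of the 11 genes in the matrix list 7 rose and 4 fell, against 32 and 23 of 61 in the whole list. Matching by symbol took in the integrin gene Itgb5 and Itgb1bp1, of an integrin-binding protein, which are not matrix genes. Itgb1bp1 was among those that rose. Fn1 rose from 21.9 and 22.5 to 68.3 and 64.1 (1.53, adjusted p = 1.73e-05), while Serpinh1, the collagen chaperone, fell by 0.36.

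RNA-binding and splicing genes had 7 higher and 7 lower of 19, against 20 and 56 of 123 in the whole list, with Hnrnpa1 down by 0.28. Ubiquitin and proteasome genes had 6 higher and 4 lower of 13, against 56 and 50 of 155. Of 9 chromatin genes 6 rose and 1 fell, where the whole list of 116 had 33 higher and 50 lower, with Dnmt1 at 30.1 and 31.1 FPKM in WT and 38.9 and 36.9 in sgNAT10 (0.30, adjusted p = 0.00195). The single MHC gene, H2-D1 of class I, had 98.7 and 99.0 in WT and 168 and 168 in sgNAT10 (0.76, adjusted p = 2.7e-05). No gene of DNA replication, of 35 tested, had a junction-crossing coding peak, and 2 of 168 genes of membrane trafficking had one (1.19%), where 402 of all 11735 tested genes did (3.43%).

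In footprints 35 of 404 tested genes passed against WT (limma), or 8.66%, where 3.09% of all genes passed. There were 27 that rose (background 1.81%) and 8 that fell (background 1.28%). Of the 35, 34 had also passed in mRNA in the same direction. In mRNA 76.9% of all tested genes with such a peak passed, in either direction. Grem1 had 2.83 FPKM in both WT libraries and 132 and 154 in sgNAT10 (log2 fold change 5.23, SE 0.215, adjusted p = 0.000614). Ptgs2 had 5.68 and 2.85 against 99.8 and 112 (4.40), Thbs2 3.32 and 5.34 against 79.5 and 83.4 (3.98) and Spp1 419 and 455 against 3399 and 3466 (2.97). Lgals1 rose from 3036 and 3250 to 6020 and 6947 (1.04, adjusted p = 0.00916). The largest falls were in Ezr, from 83.8 and 81.4 to 14.98 and 16.7 (-2.31, adjusted p = 0.00424), Col4a1, from 112 and 134 to 34.8 and 30.05 (-1.89), Col4a2, from 81.5 and 77.5 to 22.4 and 23.3 (-1.75), and Pdcd11, a ribosome biogenesis factor, from 66.2 and 61.3 to 21.7 and 18.3 (-1.63).

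These footprint calls need all 4 libraries. With any library left out, 0 to 3 of the genes passed, and without a trend in the variance 5 did. On recovered reads edgeR called 81, of which 45 rose and 36 fell, a more even split than the 27 and 8 of limma. Among genes averaging 5 FPKM or more of footprints, 11.4% of genes with such a peak passed with limma, against 5.70% of all genes.

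**Figure D5:**
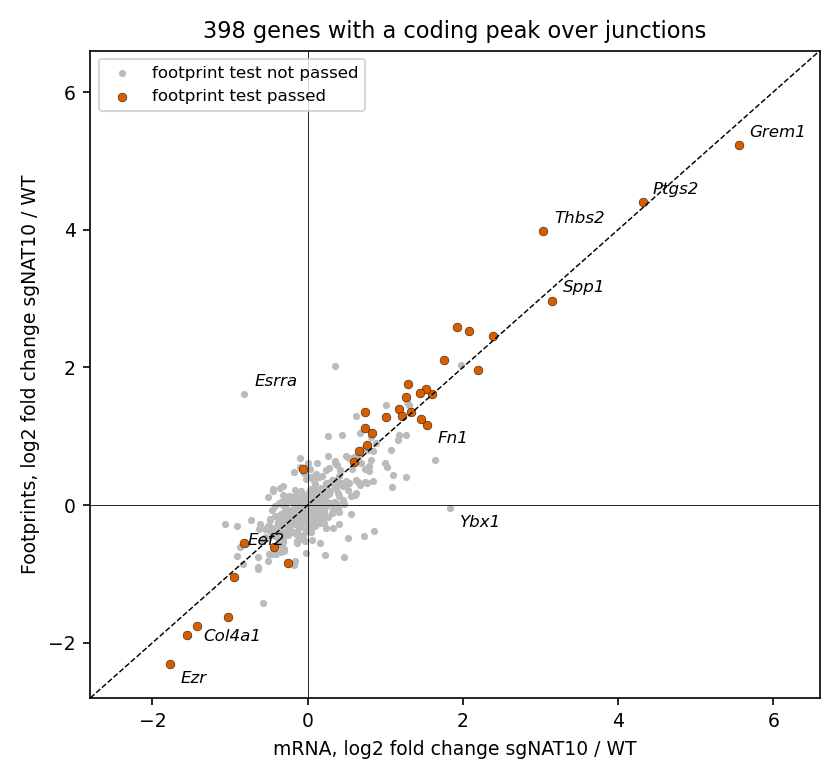
Log2 fold change in sgNAT10 of mRNA (x) and of footprints (y) for the 398 genes with a junction-crossing coding peak that were tested in both, with the line of equal change dashed. Genes past the footprint test (orange) lie near the line from Ezr at -1.77 and -2.31 to Grem1 at 5.56 and 5.23, and Ybx1 lies off it at 1.83 and -0.04.

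Over the 398 genes tested in both assays the changes of mRNA and footprints had a Pearson r of 0.86 and a Spearman rho of 0.72, genes not being independent replicates. In the test of footprints per mRNA, an interaction of genotype and assay in limma, 3 of the 398 passed (0.754%), where 0.261% of all genes passed. There were 2 that rose (background 0.152%), Eef2 among them, and 1 that fell, Ybx1 (background 0.109%). Ybx1, a cold shock protein that packs mRNA, had 371 and 370 FPKM of mRNA in WT and 1303 and 1344 in sgNAT10 (1.83, adjusted p = 7.32e-06). Its footprints were 184 and 205 in WT and 191 and 187 in sgNAT10, so they overlapped, and footprints per mRNA fell by 1.87 on the log2 scale (SE 0.0923, adjusted p = 0.00129). The Ybx1 call held with each library left out. Its peak (chr4:119281608-119282820, minus strand) covered 388 bases in 3 blocks at 1.87-fold.

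Eef2, the translocase of elongation, had 1075 and 1086 FPKM of mRNA in WT and 569 and 580 in sgNAT10, and its footprints went from 976 and 986 to 815 and 775. Footprints per mRNA rose by 0.61 (SE 0.0671, adjusted p = 0.0373). The Eef2 call was lost with any 1 mRNA library left out, where the adjusted p reached 0.453. The model takes 1 spread per gene for both assays, and footprints varied more than mRNA.

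The difference of a peak between genotypes had little relation with the change of its gene. Its Pearson r was 0.07 with the mRNA change over 481 peaks, 0.07 with the footprint change over 484 and 0.04 with footprints per mRNA over 477, and the Spearman rho was 0.08, 0.08 and 0.004. Peaks of 1 gene share its change, and the points are not independent. Grem1, with the largest rise, had a peak difference of -0.32, and Ybx1 -0.26.

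In the sgMyc set 63 of 406 tested genes passed against WT (edgeR quasi-likelihood test), or 15.5%, where 16.0% of all genes passed. There were 36 higher (background 7.11%) and 27 lower (background 8.86%). Without sgMyc replicate 3, 328 of 408 passed (80.4%, against 53.6% of all genes), 118 higher and 210 lower, and all 63 were among them. With any other single library left out, 16 to 31 passed, and each time more genes were lower than higher. There were 12 higher and 19 lower without sgMyc replicate 1, and 5 and 11 without WT replicate 3. So the majority of higher genes turned with any single library left out.

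The 4 largest rises that passed were in Spp1, Thbs2, Ptgs2 and Grem1. Ptgs2 had 18.4, 19.3 and 16.5 FPKM in WT and 69.8, 68.5 and 59.4 in sgMyc (log2 fold change 1.86, SE 0.0945, adjusted p = 0.000426, and 1.97 without replicate 3). For Spp1 the values were 639, 660 and 556 in WT and 3348, 3245 and 1023 in sgMyc (2.03, adjusted p = 0.0253, and 2.45 without replicate 3). Grem1 had 100, 106 and 80.5 against 402, 400 and 187 (1.78, adjusted p = 0.012, and 2.10 without it), and Thbs2 41.9, 44.3 and 34.6 against 190, 191 and 62.6 (1.87, adjusted p = 0.0286, and 2.27). In Spp1, Grem1 and Thbs2 the third sgMyc library lay between the other sgMyc libraries and WT. The WT level of Grem1 was 95.4 on average here and 2.64 in the WT libraries of the sgNAT10 set. Spp1, Thbs2 and Ptgs2 also had higher WT values here than in that set. The median WT level of tested genes with such a peak was 38.8 FPKM here and 30.6 in the sgNAT10 set. The tables were normalized separately, and the cause of these gaps was not tested.

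Ezr fell in the sgMyc set as well, from 31.6, 29.7 and 33.6 to 7.78, 8.32 and 7.13 (-2.03, SE 0.0883, adjusted p = 0.00032, and -1.94 without replicate 3). Basp1, a membrane-bound signalling protein, had 46.3, 44.1 and 48.7 in WT and 14.9, 14.8 and 19.9 in sgMyc (-1.48, adjusted p = 0.00255, and -1.61 without it). Dusp5, a phosphatase of ERK, had 33.3, 31.5 and 33.6 against 9.75, 9.80 and 17.4 (-1.41, adjusted p = 0.0156, and -1.71 without it), and Rpl17 256, 311 and 221 against 156, 82.3 and 126 (-1.11, adjusted p = 0.0312, and -1.11 without it). Dnmt1 fell from 106, 108 and 93.4 to 51.6, 51.5 and 62.9 (-0.88, adjusted p = 0.00666, and -0.96 without it), whereas it rose in sgNAT10. Fn1 had 135, 134 and 135 in WT and 339, 343 and 158 in sgMyc and did not pass (1.05, adjusted p = 0.0508), but it passed without replicate 3 (edgeR, 1.37, adjusted p = 5.52e-10).

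Of the lists, none of the 21 ribosomal protein genes rose and 3 fell in sgMyc. The whole list of 87 had 1 higher and 10 lower. Without replicate 3 there were 18 of the 21 that fell. That setting called 53.6% of all genes and 80.4% of genes with such a peak, and whole lists were not counted in it. The glycolytic genes had 3 of 6 lower, against 6 lower and 1 higher of 19 in the whole list. All 6 were lower without replicate 3. Pgk1 had 1411, 1355 and 1477 FPKM in WT and 947, 928 and 1007 in sgMyc (-0.56, adjusted p = 0.0106, and -0.56 without replicate 3). Of the 6 tRNA synthetase genes none passed in sgMyc, nor did any of the 18 in the whole list. All 6 were lower without replicate 3. The 11 matrix genes had 4 higher and 1 lower, against 16 and 9 of 60 in the whole list. Without replicate 3 the 11 had 6 and 3. The 22 cytoskeletal genes had 1 higher and 1 lower, against 3 and 10 of 103 in the whole list. Without replicate 3 the 22 had 5 and 12.

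Of the 422 genes, 20 could not be compared in the first mRNA set: 15 were not listed there and 5 had a mean under 1 FPKM. Of these 20, 7 had WT footprints of 1 FPKM or more, and 5 of the 7 encode proteins of blood plasma, a set seen only after the values were known. They were Apoa1 and Apoc1 of lipoproteins, the fibrinogen chains Fgb and Fgg, and Pzp, a protease inhibitor. Apoa1 had 81.1 and 18.7 FPKM of footprints in WT and 21.5 and 33.8 in sgNAT10, and at most 0.164 of mRNA in any library of the sgMyc set. Fgg had 36.8 and 9.49 in WT and 7.76 and 15.2 in sgNAT10. In each of the 5 genes WT replicate 1 was above WT replicate 2, by 3.52 to 6.15 times on FPKM + 1, while in 398 other tested genes with such a peak that ratio had a median of 0.975 (quartiles 0.841 and 1.10). Their peaks were among the highest by fold, from 7.22 in Apoa1 to 16.2 in Pzp, and Fgb held a pair at 14.4 and 10.8. The log10 p of the authors was -8.69 for Apoa1 and between -3.83 and -2.84 for the other 4 genes. The pattern was not confined to genes without mRNA in these cells. C3, a further plasma protein gene, had 22.3 FPKM of footprints in WT replicate 1 and 5.51 in WT replicate 2. This was 3.57 times on FPKM + 1, and its peak had a fold of 5.42. Its mRNA reached 61.7 FPKM in the sgMyc set, where the 5 genes had at most 0.192 in any library. Whether RNA from other cells has a part in these values was not tested.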

How the data were processed

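The deposited FPKM values of the sgNAT10 mRNA and footprint tables and of the sgMyc table, and the raw counts of the sgMyc table, were made by the authors, per the file headers. The submitters' processing notes name FastQC, Trim Galore, Bowtie2, featureCounts and mm10, with no versions and no statement of which step made which file. The authors' deposited peak table gives a fold enrichment over input, a log2 difference between genotypes, scores that are log10 p and log10 FDR, and p-values, per the file headers. The peak caller is not given in the sources used here, 34 FDR cells of the junction-crossing coding peaks were unreadable, and the genotype order is not stated.

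From these, log2(FPKM + 1) was tested, for genes averaging 1 FPKM or more, with limma 3.58.1 (eBayes with trend) in R 4.3.3. Counts were tested with the quasi-likelihood test of edgeR 4.0.16 (filterByExpr, TMM), and DESeq2 1.42.0 was an alternative. Benjamini-Hochberg adjustment ran over all tested genes, with a threshold of 0.05. The FPKM steps gave back whole reads for 99.6% of genes in mRNA and 99.9% in footprints (tolerance 1e-09), which were used only as an alternative added after the data were seen. Peaks were described without a test. Scripts were tested on simulated data. Sequences came from RefSeq windows (GRCm38.p6).

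Peaks and genes were named by rank of fold, length, blocks, difference, level and change, and up to 3 per functional list by WT mRNA level. Other named genes, such as the plasma protein genes, Rnh1's mRNA values and further list members, were picked once their values were known. The members and lists were chosen with earlier results of these data known.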

Additional observations from a re-analysis of the deposited data

How the results depend on the processing

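The mRNA calls in sgNAT10 moved little, with 266 to 297 of the genes with a junction-crossing coding peak (6078 to 6890 of all genes) passing when a library was left out, against 309 and 7431. Footprint calls were less stable. Of 35 such genes, 5 passed without a variance trend (87 of all genes, against 300), 81 with edgeR on recovered reads (815 of all genes), and 0 to 3 with a library left out (0 to 9 of all genes, where 70 to 95 and 1175 to 1751 had an unadjusted limma p under 0.05). Footprints per mRNA gave 1 of 3 without a trend and 1 to 32 with a library left out (3 to 640 of all genes, against 24). In the sgMyc set the count ran from 16 to 328 with a library left out (680 to 9368 of all genes, against 2682), 328 being without sgMyc replicate 3. Libraries left alone in a group were assumed to vary like the others.

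With the replicate number as a block, 299 genes passed in mRNA, 29 in footprints, 1 in footprints per mRNA (4 of all genes) and 28 in sgMyc (1082 of all genes). The labels do not say that the numbers pair samples, and same-numbered libraries had correlations of deviations of 0.0079 in mRNA and 0.0245 in footprints.

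Among peaks at or above the median enrichment of the list, the median difference was -0.0496, of the opposite sign to the 0.11 over all 504, and 46.2% were positive. The cause was not tested. With 1 library per group, depth limits every peak value.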
